A study of Mus musculus with 4 samples.

Results

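AP-1 is a dimeric transcription factor built from proteins of the Fos, Jun, Atf and Maf families, and the 10 genes described here, Fos, Fosb, Fosl1, Fosl2, Jun, Junb, Jund, Atf3, Maff and Batf3, encode subunits of it or close relatives. They were chosen by name, as the probe sets annotated with exactly 1 gene symbol that is one of these. All 10 were found, each with 1 probe set, among 19938 genes with such a probe set. A filter kept genes whose highest signal on the 4 arrays reached 5.87 (log2), the median of all values of single-symbol probe sets. It was passed by 9 of the 10 genes and by 10698 of all genes, and Batf3 did not pass. Fos and Fosb passed only through the etoposide arrays, so their passing already required a difference.

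The proteins carry a basic region that contacts DNA and a leucine zipper that joins the partners. Fos proteins need a Jun partner, whereas Jun proteins also pair among themselves. In fibroblasts many of these genes are immediate early genes, which are transcribed within minutes of serum, growth factors or stress without new protein synthesis. The JNK, p38 and ERK kinases act upstream, and genes for proteases, cytokines and growth factors are among the known targets.

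The cells were mouse embryonic fibroblasts of C57BL/6 background, prepared from an embryo at E13.5, lacking BAX and BAK and transformed with SV40. BAX and BAK are the pore-forming effectors of mitochondrial apoptosis, and the large T antigen of SV40 is known to inactivate p53 and retinoblastoma proteins. Every group shared the loss of BAX and BAK and the transformation. Whether p53 was inactive in these cells was not measured. The groups were p63 retrovirus with etoposide, p63 retrovirus with mock treatment, GFP retrovirus with etoposide, and GFP retrovirus with mock treatment, with 1 array each. The series' design text lists the GFP etoposide group a second time in place of the p63 etoposide group, and the labels of that sample, which name p63, were used. Etoposide, which traps topoisomerase II on cleaved DNA, was given for 6 h, and the labels give its dose as 10 µg per mL in one place and per µl in others. The sources used here do not give the isoform of p63, the promoter of the retrovirus or whether the cells were a single clone.

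Values are RMA signals in log2 units as deposited. A difference of 1, or 2-fold, was the threshold for calling a gene higher or lower. No group was replicated, so no difference has an error or a test, and the number of arrays limits the precision. Signals of different genes come from different probes and are not set against each other. Trp63 read 9.29 and 8.75 on the p63 arrays with etoposide and mock treatment, against 5.59 and 4.87 on the GFP arrays. Of 12 fibroblast markers, 8 reached the filter on at least 1 array, with Vim between 12.1 and 12.8, whereas Pdgfra, Thy1, Lum and Dcn stayed below it on all 4. Of markers of other cells, 0 of 5 for endothelium, 2 of 7 for simple epithelium (Krt8 and Cldn3), 1 of 6 for blood cells (Cd68) and 2 of 4 for skeletal muscle (Acta1 and Des) reached it on at least 1 array, and the defining markers Ptprc and Epcam did not. Cd68, a lysosomal gene of macrophages, read 6.87 with etoposide and 5.20 with mock treatment in p63 cells, and 6.78 and 6.05 in GFP cells. Krt8, a keratin gene, read 5.93 and 6.98 in p63 cells, and 6.22 and 5.97 in GFP cells. Of 6 markers of stratified epithelium, 5 (Krt5, Krt14, Dsp, Perp and Trp63) were higher by at least 1 in p63 than in GFP cells under both treatments. Trp63 encodes p63, which the retrovirus supplied, so its call follows from the design. Of all genes kept, 0.925% were higher under both treatments. The part of these markers in the differences was not tested. The array of mock-treated p63 cells had the lowest median over the genes kept, 7.48, against 7.60 to 7.69 on the others, and it was the lowest array for 40.4% of the genes kept and for 7 of the 9 AP-1 genes kept. In bulk RNA, fewer cells with a transcript and less transcript per cell cannot be told apart.

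After etoposide, 6 of the 10 AP-1 genes were higher in p63 cells and 3 in GFP cells, and none was lower in either line by that threshold. Fos, Junb and Atf3 were higher in both lines. Fosl1, Jun and Maff were higher in p63 cells, with 0.95, 0.55 and 0.95 in GFP cells. With arrays centred on their medians, 5 were higher in p63 cells and 6 in GFP cells, where 3.80% and 4.38% of all genes kept were. These counts include Fos in both lines and Fosb in GFP cells, which passed the filter only through the etoposide arrays. As deposited, among all genes kept, 6.28% were higher in p63 cells, 3.52% in GFP cells and 2.57% in both, while 1.33% were lower in p63 cells, 2.12% in GFP cells and 0.608% in both. Of the 5 AP-1 genes that read above the filter on every array (Fosl2, Jun, Junb, Jund and Atf3), 3 were higher in p63 cells and 2 in GFP cells, where 5.50% and 2.73% of the 9026 genes above it on every array were. Both etoposide arrays were above both mock arrays for 7 of the 9 AP-1 genes kept, all but Fosl2 and Jund, and for 23.8% of all genes kept. The 7 include Fos and Fosb, and among genes above the filter on every array it was so for 3 of the 5 AP-1 genes and 22.5% of all. Over all 10 genes without a filter the median etoposide difference was 1.27 in p63 cells and 0.95 in GFP cells, beside -0.03 and 0.04 over all 19938 genes.

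**Figure D1:**
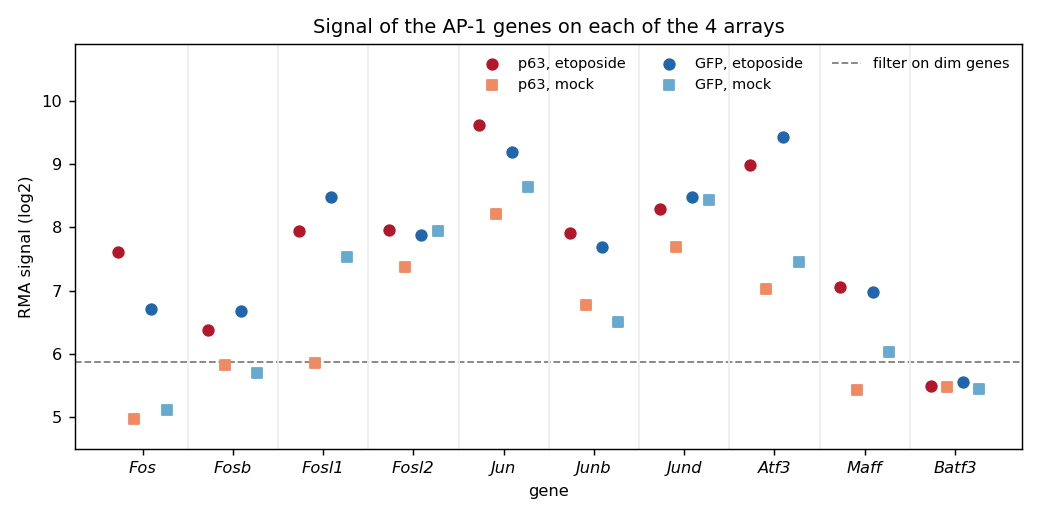
RMA signal (log2, vertical axis) of the 10 AP-1 genes (horizontal axis), 1 point per array, with circles for etoposide and squares for mock treatment, red tones for p63 and blue tones for GFP cells; the dashed line is the filter of 5.87. For 7 of the 9 genes kept, both etoposide arrays lie above both mock arrays, and Batf3 lies between 5.44 and 5.55 on all 4.

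The stretches of sequence just before the start sites of 5 of these genes are shown because they hold, or in Junb lack, short elements to which Atf, Creb and Jun proteins are known to bind, and because these genes were called higher after etoposide in at least 1 line. They are the 250 bases before the RefSeq start on GRCm38.p6, at chr12:85473640-85473889 (plus strand) for Fos, chr1:191183334-191183583 (minus strand) for Atf3, chr4:95052223-95052472 (minus strand) for Jun, chr15:79347270-79347519 (plus strand) for the second of 3 annotated Maff starts and chr8:84978749-84978998 (minus strand) for Junb. Capitals mark matches, on either strand, to the core of the cAMP response element (CRE), TGACGT, to the full element TGACGTCA, which contains that core, or to the Jun-type variant TGACATCA.
Fos: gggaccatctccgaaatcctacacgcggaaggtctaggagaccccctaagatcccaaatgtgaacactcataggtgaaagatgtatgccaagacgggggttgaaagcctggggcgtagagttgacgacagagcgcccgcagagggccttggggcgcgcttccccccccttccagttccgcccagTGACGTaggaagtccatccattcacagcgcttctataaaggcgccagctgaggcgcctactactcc
Atf3: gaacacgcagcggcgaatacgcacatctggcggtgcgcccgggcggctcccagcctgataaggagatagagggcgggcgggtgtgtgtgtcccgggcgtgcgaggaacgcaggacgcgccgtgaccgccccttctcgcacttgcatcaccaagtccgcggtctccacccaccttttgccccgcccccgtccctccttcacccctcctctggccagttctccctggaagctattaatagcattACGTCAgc
Jun: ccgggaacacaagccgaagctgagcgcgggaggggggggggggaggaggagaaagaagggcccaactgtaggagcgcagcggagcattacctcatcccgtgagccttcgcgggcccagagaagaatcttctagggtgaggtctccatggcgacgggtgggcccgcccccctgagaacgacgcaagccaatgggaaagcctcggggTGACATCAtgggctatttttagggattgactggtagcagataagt
Maff: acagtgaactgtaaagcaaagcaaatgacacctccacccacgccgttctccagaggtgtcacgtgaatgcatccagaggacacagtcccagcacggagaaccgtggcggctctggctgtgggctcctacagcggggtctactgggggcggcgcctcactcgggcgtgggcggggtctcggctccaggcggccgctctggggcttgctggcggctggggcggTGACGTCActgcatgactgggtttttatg
Junb: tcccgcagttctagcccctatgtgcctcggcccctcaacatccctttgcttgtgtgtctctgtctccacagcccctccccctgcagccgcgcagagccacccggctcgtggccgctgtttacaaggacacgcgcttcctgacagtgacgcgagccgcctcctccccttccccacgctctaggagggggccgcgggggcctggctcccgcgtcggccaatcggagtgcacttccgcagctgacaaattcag
RefSeq promoter windows were matched for 9 of the 10 genes, 11 windows in all, the exception being Fosl1. The CRE core was found in 3 of the 11 windows and in 6.47% of 32841 windows of all genes. In Fos it lay 66 to 61 bases before the start, in Atf3 8 to 3 bases before it on the opposite strand, and in Maff within a full element 29 to 22 bases before the second start. The full element occurred in 1.55% of all windows. The variant TGACATCA occurred in 2.93% of all windows and lay 45 to 38 bases before the start in Jun and, in the same position, before the third Maff start. The AP-1 element proper, TGANTCA (6.75% of all windows), and the CArG box bound by SRF (1.47%) were in none of the 11, and 5 of the 9 genes, Fosb, Fosl2, Junb, Jund and Batf3, held none of the letters searched. Bases further upstream than 250, or after the start, were not searched, so an absence holds for these windows alone. The matches describe the letters in these windows and no binding was measured.

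Fos, the founding member of its family and the classic immediate early gene, read 7.62 with etoposide and 4.98 with mock treatment in p63 cells, and 6.72 and 5.12 in GFP cells. Both etoposide arrays were above both mock arrays, and both mock readings were below the filter. The etoposide difference was 2.64 in p63 cells and 1.60 in GFP cells. With the mock readings raised to the filter, these were 1.75 and 0.85, or at least 3.36-fold and at least 1.80-fold, so that Fos was then called in p63 cells alone.

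Fosb, a Fos relative of which truncated forms accumulate in the brain after repeated stimulation, read 6.38 with etoposide and 5.83 with mock treatment in p63 cells, and 6.67 and 5.69 in GFP cells. Its differences of 0.54 and 0.98 did not reach the threshold, the second narrowly. Both mock readings were below the filter, and raised to it the differences were 0.51 and 0.80.

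Fosl1 encodes Fra-1, a Fos protein without the transactivation domain of c-Fos that is abundant in migrating and transformed cells. It read 7.94 with etoposide and 5.86 with mock treatment in p63 cells, and 8.48 and 7.53 in GFP cells. The mock-treated p63 array was far below the other 3, and the highest reading was that of etoposide-treated GFP cells. The etoposide difference was 2.08 in p63 cells (at least 4.20-fold) and 0.95 in GFP cells (1.93-fold). Set against mock-treated GFP cells instead, which leaves out the low array but mixes virus and treatment, etoposide-treated p63 cells differed by 0.41.

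Fosl2, which encodes Fra-2, a Fos protein known from bone and matrix biology, read 7.95 with etoposide and 7.38 with mock treatment in p63 cells, and 7.89 and 7.95 in GFP cells. Mock-treated p63 cells were the low sample, while the remaining 3 arrays lay within 0.067 of each other. The differences of 0.57 and -0.058 had opposite signs, and the second became 0.040 with arrays centred on their medians and 0.056 after cyclic loess.

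Jun encodes c-Jun, the main target of JNK, which also activates its own gene. It read 9.61 with etoposide and 8.21 with mock treatment in p63 cells, and 9.19 and 8.64 in GFP cells. Both etoposide arrays were above both mock arrays. The etoposide difference was 1.40 (2.64-fold) in p63 cells and 0.55 (1.46-fold) in GFP cells. Against mock-treated GFP cells, etoposide-treated p63 cells differed by 0.97, just below the threshold.

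Junb, a Jun protein that can restrain c-Jun and cell proliferation, read 7.91 with etoposide and 6.77 with mock treatment in p63 cells, and 7.70 and 6.50 in GFP cells. The differences were 1.14 and 1.20, or 2.20-fold and 2.29-fold, with both etoposide arrays above both mock arrays. With arrays centred on their medians the difference in p63 cells was 0.94 and no longer called.

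Jund, a Jun gene known for broad and fairly constant expression, read 8.28 with etoposide and 7.69 with mock treatment in p63 cells, and 8.49 and 8.44 in GFP cells. The GFP arrays were close to each other, and mock-treated p63 cells were again lowest. The differences of 0.59 and 0.047 did not reach the threshold. Of all pairs of AP-1 genes kept, Jund and Fosl2 had the most similar deviations from their own means over the 4 arrays, at a Euclidean distance of 0.24 (log2), and Jund and Fos the least similar, at 2.01.

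Atf3, a stress-induced bZIP gene that responds to DNA damage and to the ATF4 pathway and pairs with Jun proteins, read 8.99 with etoposide and 7.03 with mock treatment in p63 cells, and 9.44 and 7.46 in GFP cells. All 4 readings were above the filter and the etoposide arrays were the higher pair. The differences of 1.96 (3.90-fold) and 1.98 (3.94-fold) placed Atf3 at rank 75 in p63 cells and rank 46 in GFP cells among the 10698 genes kept. The difference between those differences was -0.017, or -0.31 with arrays centred and -0.24 after cyclic loess.

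Maff encodes a small Maf protein, which has a zipper but no activation domain. It read 7.06 with etoposide and 5.43 with mock treatment in p63 cells, and 6.99 and 6.03 in GFP cells. The etoposide arrays lay close together and above both mock arrays. The difference was 1.63 in p63 cells and 0.95 in GFP cells (1.93-fold), and with the mock p63 reading raised to the filter the arrays of p63 cells still differed by 1.19, at least 2.28-fold.

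Batf3, which is known for its role in dendritic cell development and pairs with Jun proteins, read 5.49 with etoposide and 5.48 with mock treatment in p63 cells, and 5.55 and 5.44 in GFP cells. All 4 values were below the filter, so no call is made from their differences.

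**Figure D2:**
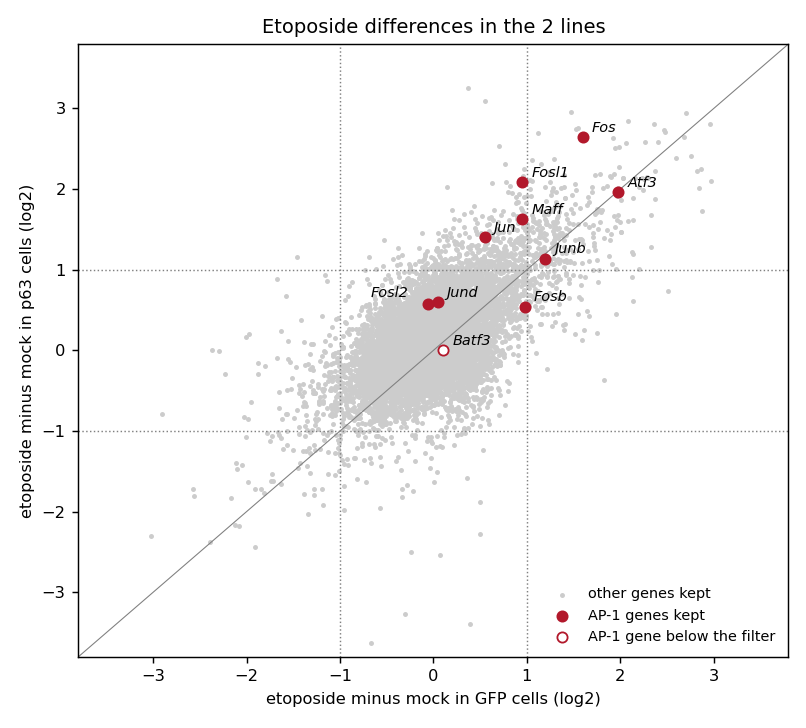
Etoposide minus mock (log2) in GFP cells (horizontal axis) and in p63 cells (vertical axis) for the 10698 genes kept, in grey, with the AP-1 genes in red, Batf3 as an open circle, dotted lines at differences of 1 and -1 and a diagonal where both lines are equal. Fos, Atf3 and Junb lie past 1 on both axes, while Fosl1, Maff and Jun lie past 1 on the vertical axis alone.

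Setting p63 against GFP cells addresses which genes differ when these fibroblasts carry p63. The etoposide comparison in p63 cells and the virus comparison in mock-treated cells share the array of mock-treated p63 cells. Fosl1 was the AP-1 gene called, lower by 3.18-fold in mock-treated p63 cells, with a log2 difference of -1.67, or -1.66 with the p63 reading raised to the filter. In etoposide-treated cells its difference was -0.54 (1.45-fold), below the threshold. Among all genes kept, 3.76% were lower and 2.42% higher in mock-treated p63 than GFP cells, and 0.514% were lower and 1.38% higher in etoposide-treated cells. Under both treatments 0.486% were lower and 0.925% higher, and 0 AP-1 genes were. No other AP-1 gene reached 1 in either treatment.

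In mock-treated cells the remaining differences, p63 minus GFP, ran from -0.75 in Jund to 0.27 in Junb. Maff had -0.60, Fosl2 -0.56, Atf3 -0.43, Jun -0.43, Fos -0.14 and Fosb 0.14, beside a median of -0.14 over all genes kept. With arrays centred on their medians that of all genes was 0.071, Jund had -0.54, and Fos turned to 0.070. Both mock readings of Fos and of Fosb were below the filter, which gives a difference of 0 with the readings raised to it, and that of Maff was then -0.16. In etoposide-treated cells Fos had the highest difference, 0.90 (1.87-fold), followed by Jun with 0.42 and Junb with 0.22, and Atf3 had -0.45. Of the 5 AP-1 genes above the filter on every array, Junb was above 0 and Jund and Atf3 were below 0 under both treatments, while Fosl2 and Jun had opposite signs; with arrays centred, Fosl2 was below 0 under both. The highest array was that of etoposide-treated p63 cells for 5 of the 9 AP-1 genes kept (Fos, Fosl2, Jun, Junb and Maff) and for 24.4% of all genes kept. It was that of etoposide-treated GFP cells for the other 4 (Fosb, Fosl1, Jund and Atf3) and for 17.8% of all.

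**Figure D3:**
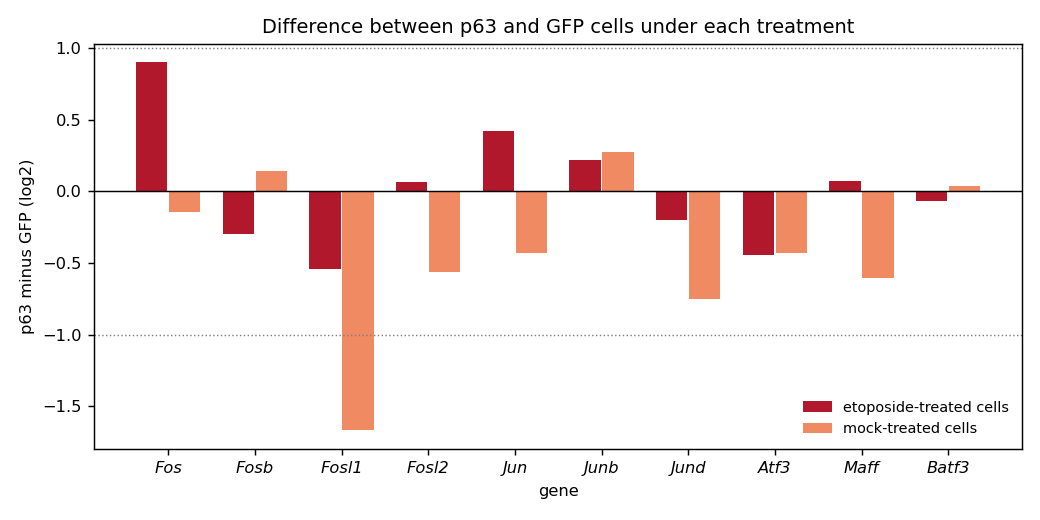
Difference between p63 and GFP cells (log2, vertical axis) for each AP-1 gene (horizontal axis), in etoposide-treated (dark bars) and mock-treated cells (light bars), with dotted lines at 1 and -1. Fosl1 in mock-treated cells, at -1.67, is the bar that passes a dotted line, and Fos in etoposide-treated cells reaches 0.90. The mock-treated bars of Fos and Fosb and both bars of Batf3 rest on readings that are all below the filter.

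Subtracting the etoposide difference of GFP cells from that of p63 cells combines all 4 arrays. It was 1.13 for Fosl1, 1.04 for Fos, 0.85 for Jun, 0.68 for Maff, 0.63 for Fosl2 and 0.55 for Jund. It was -0.057 for Junb, -0.017 for Atf3 and -0.44 for Fosb. With dim readings set to the filter value, Fos stood at 0.90, Maff at 0.24 and Fosb at -0.30. The median over all genes kept was 0.20, and it was above 0 for 69.3% of them and at least 1 for 2.84%. With arrays centred on their medians, Fosl1 stood at 0.84 and Fos at 0.75. For Fosl1 the value comes with a low reading in mock-treated p63 cells, whereas for Fos it comes with a high reading in etoposide-treated p63 cells.

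With the mock-treated p63 array left out, 4 of the AP-1 genes, Fos (2.50), Atf3 (1.53), Junb (1.41) and Maff (1.02), were higher in etoposide-treated p63 cells than in mock-treated GFP cells, where 5.66% of all genes kept were. This comparison mixes virus and treatment. Fos passed the filter only through the etoposide arrays, and its mock-treated GFP reading was below the filter. As deposited, all 4 were also called higher in p63 cells against the mock-treated p63 array. Both comparisons share the array of etoposide-treated p63 cells, so they are not independent. Against mock-treated GFP cells, Fosb in etoposide-treated p63 cells had 0.68, Fosl2 0.0090 and Jund -0.16.

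Genes of the wider pathway were described in the same way, in lists chosen with earlier results of these data known. Of 19 other bZIP genes kept, 4 were higher after etoposide in p63 cells and 1 in GFP cells, and 0 were lower. Among all genes kept, 6.28% were higher in p63 cells and 3.52% in GFP cells, and 1.33% and 2.12% were lower. Mafk, a small Maf partner related to Maff, was higher in both, by 1.61 and 1.21. It read 8.53 with etoposide and 6.92 with mock treatment in p63 cells, and 8.54 and 7.33 in GFP cells. Its etoposide readings in p63 and GFP cells were nearly equal, and over all genes kept that difference had a median of 0.024. The list's medians were 0.19 in p63 cells and -0.035 in GFP cells, beside 0.097 and -0.083 over all genes kept. Between the lines, Atf6, a sensor of endoplasmic reticulum stress, had -0.31 in etoposide-treated and -1.54 in mock-treated cells, and Atf1, a Creb relative, -0.031 and -1.24, and neither was called under both treatments.

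Of 18 genes kept for upstream kinases and SRF-type factors, 3 were higher and 1 was lower after etoposide in p63 cells and 0 were called in GFP cells. The medians were 0.13 and -0.081, beside 0.097 and -0.083 over all genes kept. Of all genes kept, 6.28% were higher and 1.33% lower in p63 cells, and 3.52% and 2.12% in GFP cells. With arrays centred or after cyclic loess, 0 of the 18 were higher in p63 cells and 1 in GFP cells. Map2k3, a kinase that activates p38, stood just below the threshold, at 0.95 in p63 cells and 0.99 in GFP cells. Map2k6, another p38 kinase, had -1.34 and -0.84 but was below the filter on 3 arrays, and raised to it had -0.093 and 0. With p63, Elk3, an SRF partner, had -0.0018 in etoposide-treated and -1.28 in mock-treated cells, and Map3k1, a kinase upstream of JNK, 0.72 and -0.0026.

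Of 17 genes kept in a list made up mostly of restraints of AP-1 signalling, 6 were higher after etoposide in p63 cells and 3 in GFP cells, and 0 were lower. The 6 include Gadd45a (1.25), a stress gene that is not a dedicated restraint of AP-1. The medians were 0.59 and 0.39, beside 0.097 and -0.083 over all genes kept, of which 6.28% and 3.52% were higher. Dusp6, a phosphatase of ERK, was higher by 2.96 and 1.47 in p63 and GFP cells. Fbxw7, the ubiquitin ligase subunit that targets c-Jun for destruction, was higher by 1.52 and 1.34. Dusp2, a nuclear MAPK phosphatase, was higher by 1.41 and 1.31, or by 1.22 and 0.97 with its dim mock readings raised. With p63, Dusp5 had -0.83 in etoposide-treated and -0.64 in mock-treated cells and the mRNA-decay factor gene Zfp36l2 -0.59 and -0.81, both short of the threshold.

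Of 23 genes kept that are known to be regulated through AP-1 sites, 10 were higher after etoposide in p63 cells and 5 in GFP cells, and 0 were lower. The medians were 0.95 and 0.48, beside 0.097 and -0.083 over all genes kept, of which 6.28% and 3.52% were higher. The 5 listed genes higher in GFP cells were called in both lines. Ereg, an EGF receptor ligand, was higher by 2.75 and 1.54 (1.27 and 1.30 with dim mock readings raised), and Plau, the urokinase protease, by 1.01 and 1.96. The cytokine Lif was higher by 1.59 and 1.79, the chemokine Ccl2 by 2.11 and 1.04, and Csf2 by 1.37 and 1.60, although Csf2 stood at 0.22 and 0.25 with its mock readings raised to the filter. Ccnd1, the cyclin D1 gene, was lower with p63 under both treatments, with differences of -1.44 in etoposide-treated and -2.98 in mock-treated cells. Hmga2, a chromatin protein gene, was lower as well, with -1.30 and -1.05.

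Of 19 other early genes kept, 7 were higher after etoposide in p63 cells and 2 in GFP cells. The medians were 0.67 and 0.27, beside 0.097 and -0.083 over all genes kept, of which 6.28% and 3.52% were higher. Btg2, an antiproliferative p53 target, was higher by 2.41 and 2.75, and Nr4a1, an orphan nuclear receptor, by 1.53 and 1.05. With p63, Myc had -0.063 in etoposide-treated and -1.79 in mock-treated cells, and Nr4a1 -0.33 and -0.81.

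**Figure D4:**
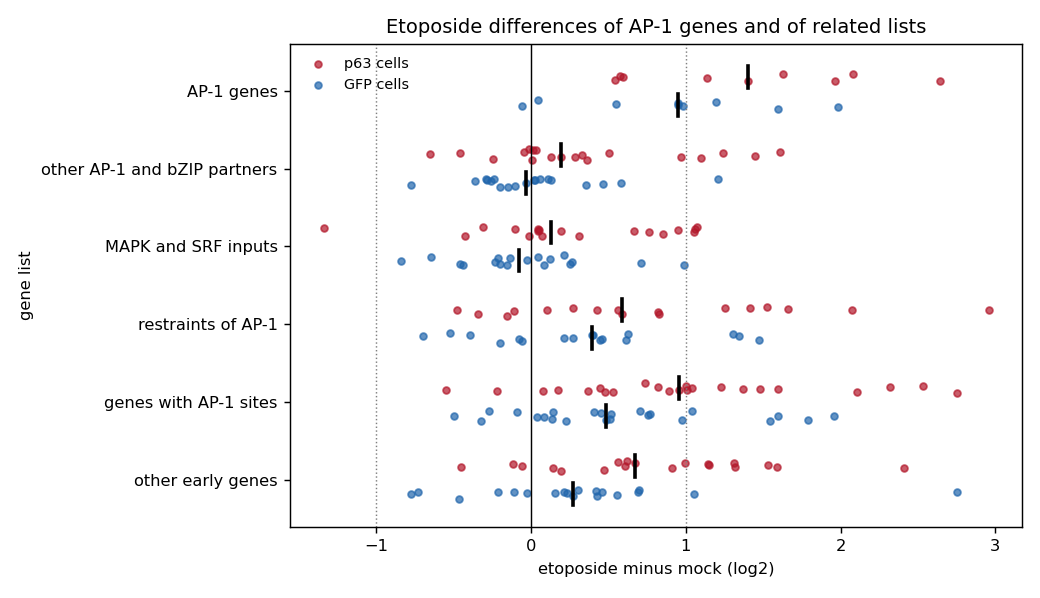
Etoposide minus mock (log2, horizontal axis) of the genes kept in each list (vertical axis), with p63 cells in red above GFP cells in blue, 1 point per gene (vertical scatter only separates points) and black bars at the medians. The bar of the AP-1 genes is at 1.40 in p63 cells and 0.95 in GFP cells, and those of the kinase list are at 0.13 and -0.081.

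Genes whose 4 values followed those of Fos, Junb or Atf3 most closely were sought by the distance between deviations from each gene's own mean, over the 4 arrays. Nearest to Atf3 were Ptpn22, a tyrosine phosphatase of immune signalling, at 0.11, Mapkapk3, a kinase downstream of p38, at 0.22, and Dcaf4 at 0.25. Nearest to Junb were Wdr35, a component of ciliary transport, at 0.072, the lysosomal membrane gene Sidt2 at 0.084 and Fam124a at 0.094. Nearest to Fos were Shisal2b at 0.29, Pqlc3 at 0.36 and Cd80, a costimulatory ligand of T cells, at 0.40, and these distances are larger than those of the first neighbours of Junb and Atf3. Both mock readings of Fos were below the filter, so its distances rest in part on dim readings, unlike those of Junb and Atf3.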

How the data were processed

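Per the labels' protocols, Trizol-extracted RNA was amplified and labelled with biotin by a NuGEN kit for Affymetrix mouse gene arrays. The authors deposited log2 values. Per the submitters' processing notes these came from RMA, run in Affymetrix Expression Console. The sources used here do not give its version, annotation or genome build. That the logarithm has base 2 was inferred from the values, which ran between 1.27 and 14.4. The deposited distributions were not identical, with SDs over all probe sets from 2.28 to 2.39, and centring or cyclic loess moves the counts of calls.

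Of 35512 probe sets, 21789 had exactly 1 symbol in a platform annotation of 2016. Where a gene had more than 1 probe set, that of the highest mean was taken. Differences, counts and distances were computed with Python 3.11.15 and pandas 2.3.3. The calling of differences was tested on simulated data, with shifts well above the threshold and little noise. There was 1 array per group, so there was no test. A low reading gives a fold as a lower bound, with the reading raised to the filter of 5.87. The 7 alternatives were no filter, a stricter filter (75th percentile, 7.82), calling at 1.5-fold, medians over probe sets, centred arrays, cyclic loess (limma 3.58.1) and low readings raised; leaving out mock-treated p63 cells was added after seeing the data.

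The AP-1 genes and the lists were chosen with earlier results of these data known. Named are every AP-1 gene, list members called in both comparisons of a pair (at most 8, or the 2 with the largest mean difference where none was), the 3 nearest genes of each AP-1 gene called in both lines, and Trp63 and Mdm2 as checks of the labels. Mdm2, a p53 target, read 12.3 and 9.71 with etoposide and mock treatment in p63 cells, and 12.4 and 9.99 in GFP cells. Its etoposide differences were 2.59 and 2.40, and a part of p53 in them was not tested. Marker genes were named for the cell type check.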

Additional observations from a re-analysis of the deposited data

Results flagged for a closer look

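Fosl2 had etoposide differences of opposite sign in the 2 lines, 0.573 in p63 cells and -0.0581 in GFP cells. For 6 genes the difference between p63 and GFP cells had opposite signs under the 2 treatments. In etoposide-treated and in mock-treated cells it was 0.902 and -0.143 for Fos, -0.297 and 0.141 for Fosb, 0.0671 and -0.564 for Fosl2, 0.421 and -0.429 for Jun, 0.0726 and -0.604 for Maff, and -0.0651 and 0.0366 for Batf3. Each rests on 1 array per group and the difference was not tested. All are below the threshold of 1. Batf3 read below the filter on all arrays, and Fos and Fosb did so on both mock arrays, so that the sign of a difference between such readings is not a measured direction. With arrays centred on their medians, Fos (0.82 and 0.070), Fosl2 (-0.015 and -0.35) and Maff (-0.0090 and -0.39) had the same sign under both treatments. Fosb and Jun kept opposite signs. The share of all genes kept with opposite signs was not computed.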

How the results depend on the processing

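No paired analysis was possible because each group has 1 array and no replicate number to pair by; a model of virus and treatment without their interaction, which would use that interaction as its error, was not run. With the 1.5-fold threshold, 6 AP-1 genes were higher after etoposide in GFP cells and 5 in both lines, against 3 and 3 at a difference of 1; of all genes kept, 9.28% and 6.71% were at 1.5-fold. At that threshold 1 was higher with p63 in etoposide-treated cells (against 0) and 3 were lower in mock-treated cells (against 1), beside 4.91% and 16.1% of all genes kept. With arrays centred, 6 were higher in GFP cells, Fosb (1.08), Fosl1 (1.05) and Maff (1.05) passing the threshold. At either setting the 6 include Fos and Fosb, which passed the filter only through the etoposide arrays. As deposited, with mock readings raised to the filter, these stood at 0.85 and 0.80 in GFP cells. The other 89 of 94 recomputed counts and medians over the AP-1 genes stayed within 1.5 times or within 0.454, the SD over genes of the difference of etoposide differences; the cause of these changes was the threshold itself or, for centring, the shift of the array medians. Calling all genes kept, the share higher among those called was 82.6% in p63 cells after etoposide as deposited and 60.7% centred, 62.4% and 74.0% in GFP cells, and 39.2% and 66.9% for p63 against GFP in mock-treated cells (53.6% after cyclic loess). The stricter filter left 6 AP-1 genes, without Fos, Fosb and Maff. No depth applies to arrays; readings below the filter on 4 of the 9 genes kept limit their folds.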

Other observations

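Other genes, chosen after their values were seen, stood lowest in mock-treated p63 cells. That array was the lowest for 40.4% of all genes kept and had the lowest median, 7.48. Mt2, a metallothionein that binds zinc, read 9.06 with etoposide and 6.52 with mock treatment in p63 cells, and 9.55 and 8.85 in GFP cells. Egr1, an early zinc finger factor, read 8.19 and 6.60 in p63 cells, and 8.19 and 7.50 in GFP cells. Dusp1, a phosphatase of JNK and p38, read 9.57 and 7.91 in p63 cells, and 9.53 and 8.92 in GFP cells. Cebpb, a bZIP gene of inflammation, read 7.88 and 6.44 in p63 cells, and 7.88 and 7.41 in GFP cells.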
